A study of Mus musculus with 12 samples.

Results

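Genes of dendritic cell maturation and co-stimulation were selected by name from the deposited tables: *Ccr7*, *Ccl17*, *Ccl22*, *Cd40* and *Cd83*. The tables hold 124 genes, chosen by the authors as NF-κB-dependent, and these are 5 of them. RNA came from thioglycollate-elicited peritoneal macrophages of C57BL/6J mice, cells that an irritant draws into the peritoneal cavity. The mice were wild type (*N4bp1*+/+) or lacked *N4bp1* (*N4bp1*-/-), which the study's methods describe as homozygous for a null allele made with CRISPR-Cas9. For its mice in general, the methods give both sexes and an age of 8 to 12 weeks. Macrophages of both genotypes were left unstimulated, were given the TLR7 ligand R848 (20 ng/ml) or were given the TLR4 ligand LPS (10 ng/ml), for 2 h by the sample labels. This makes 12 libraries in 6 groups, with 2 mice in each.

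When a dendritic cell senses a microbe it matures: it leaves the tissue for the lymph node, attracts T cells and displays the surface proteins that T cells need for activation. CCR7 is the receptor that guides it along the chemokines CCL19 and CCL21, while CCL17 and CCL22 are ligands of CCR4 and draw T cells that carry this receptor. CD40 receives the CD40 ligand of activated T cells and signals through TRAF proteins to NF-κB, and CD83 is a surface protein that keeps MHC class II and CD86 on the mature cell. Activated macrophages can express several of these genes as well.

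Each value below is the authors' mean FPKM over both mice of a group, a measure of abundance adjusted for transcript length and for sequencing depth. No read counts and no values per mouse were analysed here. The depth is therefore unknown and the spread between mice cannot be given, so every difference is a ratio of 2 means with no test and no replicate check. Counts are of genes with a ratio of at least 2-fold, and elsewhere higher and lower give only the order of 2 means. The scaling between treatments is not stated in the sources used here, and levels across treatments only describe the tables. Titles of unstimulated libraries begin with another letter than those of stimulated ones, so a batch and the stimulus cannot be told apart. The transcript of *N4bp1* itself was not analysed here. The 7 macrophage markers looked for, *Adgre1* and *Csf1r* among them, are not among the 124 genes, so the labelled cell type was not checked against them.

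*Ccl22* and *Ccl17* are neighbours on chromosome 8 of mm10, at 94745590 to 94751699 and 94810453 to 94812036, both on the plus strand. They are 58.8 kb apart, and 1 protein-coding gene, *Cx3cl1*, lies between them in GENCODE M21. Their promoters are printed because RefSeq promoter windows were matched for these 2 of the 5 genes only. The windows run from 250 bases before to 50 bases after the RefSeq start site (build GRCm38.p6, plus strand), chr8:94745434-94745733 for *Ccl22* and chr8:94810203-94810502 for *Ccl17*. Capitals mark matches to a loose κB motif, GGGNNNNNCC, on either strand.
Ccl22: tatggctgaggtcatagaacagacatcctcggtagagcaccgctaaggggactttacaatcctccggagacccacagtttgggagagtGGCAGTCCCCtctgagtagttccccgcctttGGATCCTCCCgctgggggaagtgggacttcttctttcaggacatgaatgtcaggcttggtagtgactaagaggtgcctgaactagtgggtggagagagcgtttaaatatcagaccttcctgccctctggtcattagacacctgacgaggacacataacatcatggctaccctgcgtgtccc
Ccl17: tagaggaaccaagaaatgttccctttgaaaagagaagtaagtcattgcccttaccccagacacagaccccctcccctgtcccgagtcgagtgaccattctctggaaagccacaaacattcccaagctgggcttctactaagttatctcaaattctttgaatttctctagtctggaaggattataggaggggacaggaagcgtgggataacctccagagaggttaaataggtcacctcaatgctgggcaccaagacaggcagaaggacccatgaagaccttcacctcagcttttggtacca

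The *Ccl22* window holds 2 matches to this motif, both on the minus strand, which begin 162 and 131 bases before the RefSeq start site. The *Ccl17* window holds 0. The motif occurs in 50.8% of the 32851 RefSeq promoter windows of this length, so a match is common. An AP-1 motif, TGANTCA, and an interferon response motif, GAAANNGAAA, were searched on both strands and were found in 0 of the 2 windows, against 7.81% and 3.44% of all windows. For *Ccl22* the RefSeq start site lies 94 bases inside the locus that the authors' table gives. The promoter table matched 2 of the 5 genes, and *Ccr7*, *Cd40* and *Cd83* were not matched.

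*Ccr7*, the receptor for lymph node homing, was higher in *N4bp1*-/- than in *N4bp1*+/+ macrophages in every treatment. Its mean FPKM was 0.0452 in unstimulated *N4bp1*+/+ cells, 0.366 in those given R848 and 0.215 in those given LPS. The same 3 values in *N4bp1*-/- cells were 0.942, 2.71 and 1.73. The lowest knockout value, that of unstimulated cells, lay above the highest wild-type value, that after R848. All wild-type values were under 1 FPKM.

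The ratio of *N4bp1*-/- to *N4bp1*+/+ for *Ccr7* was 20.8-fold without stimulus (log2 ratio 4.38), 7.39-fold after R848 (2.88) and 8.04-fold after LPS (3.01). Among the listed genes with a ratio this was rank 1 of 123 without stimulus, rank 2 of 124 after R848 and rank 2 of 124 after LPS, counted from the highest. The gene is at 99144196 to 99155077 on the minus strand of chromosome 11 of mm10. It was among the 13 of the 124 genes that were at least 2-fold higher in all 3 treatments. The other genes with such ratios include *Sox9*, a transcription factor of cartilage and stromal cells, the chitinase-like gene *Chil1* and the matrix genes *Fn1* and *Thbs1*. The size of the unstimulated ratio rests on a wild-type mean of 0.0452 FPKM, and with a pseudocount of 1 FPKM its log2 value is 0.89, which is under 2-fold.

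The chemokine genes had the opposite order of genotypes in unstimulated and in stimulated cells. For *Ccl22* the mean FPKM in *N4bp1*+/+ cells was 0.182 unstimulated, 11.5 after R848 and 46.5 after LPS. The *N4bp1*-/- values were 1.01, 8.99 and 14.8. The knockout was thus above the wild type without stimulus and below it after both stimuli. *Ccl17* had means of 0.0682, 1.42 and 2.13 FPKM in *N4bp1*+/+ cells and of 0.158, 1.20 and 0.426 FPKM in *N4bp1*-/- cells. The order of the genotypes was the same as for *Ccl22* in each treatment, at lower levels.

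For *Ccl22* the ratio of *N4bp1*-/- to *N4bp1*+/+ was 5.53-fold without stimulus (log2 ratio 2.47), and expression was 1.28-fold lower in the knockout after R848 (−0.35) and 3.13-fold lower after LPS (−1.65). For *Ccl17* it was 2.32-fold higher without stimulus (1.21), 1.18-fold lower after R848 (−0.24) and 5.01-fold lower after LPS (−2.32). After LPS these were ranks 3 and 2 of 124 from the lowest. The lowest ratio there was that of the cytokine gene *Il23a* (−2.58). *Ccl17* and *Ccl22* are the 2 genes of the list, 1.61% of it, that were at least 2-fold higher in the knockout without stimulus and at least 2-fold lower after LPS. The unstimulated values are low: *Ccl17* was under 1 FPKM in both genotypes, and with a pseudocount of 0.1 FPKM its log2 ratio there is 0.62, under 2-fold. With a pseudocount of 1 FPKM the unstimulated log2 ratio of *Ccl22* is 0.76.

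*Cd40*, the receptor for help from T cells, had a low level without stimulus and high levels after both stimuli. Its mean FPKM in *N4bp1*+/+ cells was 1.54 unstimulated, 328 after R848 and 515 after LPS. Knockout cells had 3.39, 271 and 331 FPKM. The knockout value was above the wild type without stimulus and below it after both stimuli, the same order as for the chemokine genes. This order was found in 17 of the 124 genes, which is 13.7%, with *Cd274* and *Nfkb2* among them. The log2 ratios of *Cd40* were 1.14, −0.28 and −0.64, which is 2.20-fold higher, 1.21-fold lower and 1.56-fold lower in the knockout. Relative to the median of all listed genes the unstimulated log2 ratio is 0.61, under 2-fold, and for *Ccl17* it is then 0.69. The locus of *Cd40* in the authors' table runs from 165055436 to 165072948 on chromosome 2 of mm10.

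*Cd83* differed from the other genes in that it was already high in unstimulated macrophages and lower in the knockout in every treatment. The means in *N4bp1*+/+ cells were 32.6 FPKM unstimulated, 460 after R848 and 487 after LPS. Those in *N4bp1*-/- cells were 23.7, 309 and 291 FPKM. Knockout expression was 1.38-fold lower without stimulus (log2 ratio −0.46), 1.49-fold lower after R848 (−0.57) and 1.68-fold lower after LPS (−0.75), all under 2-fold. Of the 124 genes, 16 were below the wild type in all 3 treatments, which is 12.9%. *Cd83* lies on the plus strand of chromosome 13, at 43784775 to 43803132.

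**Figure D1:**
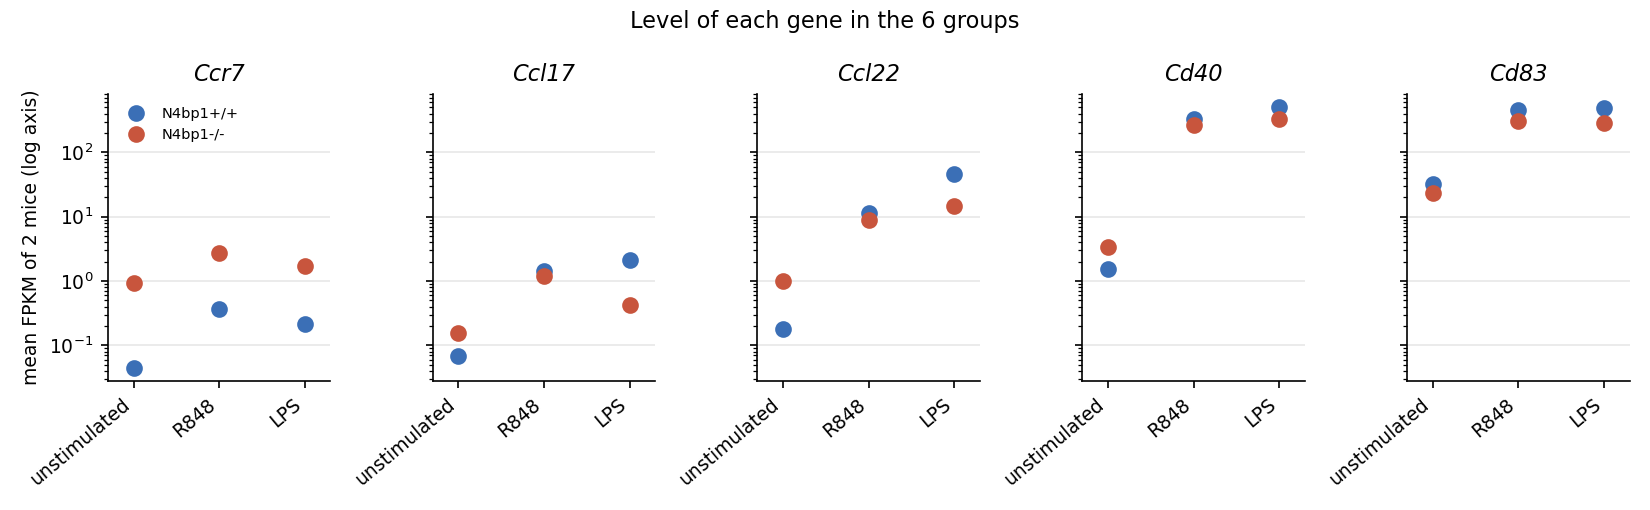
Mean FPKM (log axis) of each gene in the 3 treatments, with 1 point per group, the authors' mean over 2 mice, in *N4bp1*+/+ (blue) and *N4bp1*-/- (red) macrophages. *Ccr7* is higher in the knockout in all 3 treatments, *Cd83* is lower in all 3, and *Ccl17*, *Ccl22* and *Cd40* are higher without stimulus and lower after R848 and LPS.

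Across the 5 genes, 4 were at least 2-fold higher in unstimulated *N4bp1*-/- macrophages, where 35% of the 123 listed genes with a ratio were so, and 0 were at least 2-fold lower, against 0% of the listed genes. The median log2 ratio of the 5 was 1.21, and that of the listed genes was 0.53. Relative to that median, 29 of all listed genes were at least 2-fold higher and 7 at least 2-fold lower. Of the 5, *Ccr7* (log2 ratio 3.85) and *Ccl22* (1.94) were then at least 2-fold higher, and *Ccl17* (0.69) and *Cd40* (0.61) were not. With a pseudocount of 1 FPKM *Ccr7* (0.89), *Cd40* (0.79), *Ccl22* (0.76) and *Ccl17* (0.12) were all under 2-fold. Of all listed genes 16 of 124 were then at least 2-fold higher. After R848, 1 of the 5 (*Ccr7*) was at least 2-fold higher, against 25% of 124, and 0 were at least 2-fold lower, against 1.61%. The median of the 5 was −0.28 there, and that of the listed genes was 0.28. After LPS the same gene was at least 2-fold higher, against 16.1%, and the 2 chemokine genes were at least 2-fold lower, against 4.84%. The median of the 5 was −0.75 and that of all listed genes −0.09. Under both rescalings to listed genes the direction of the genotype ratio was the same for each of the 5 genes in each treatment, and the other settings cannot turn the direction of a ratio. A minimum of 1 FPKM in a genotype removed *Ccr7* and *Ccl17* from the unstimulated comparison, and it removed 0 of the 5 after R848 and 0 after LPS.

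**Figure D2:**
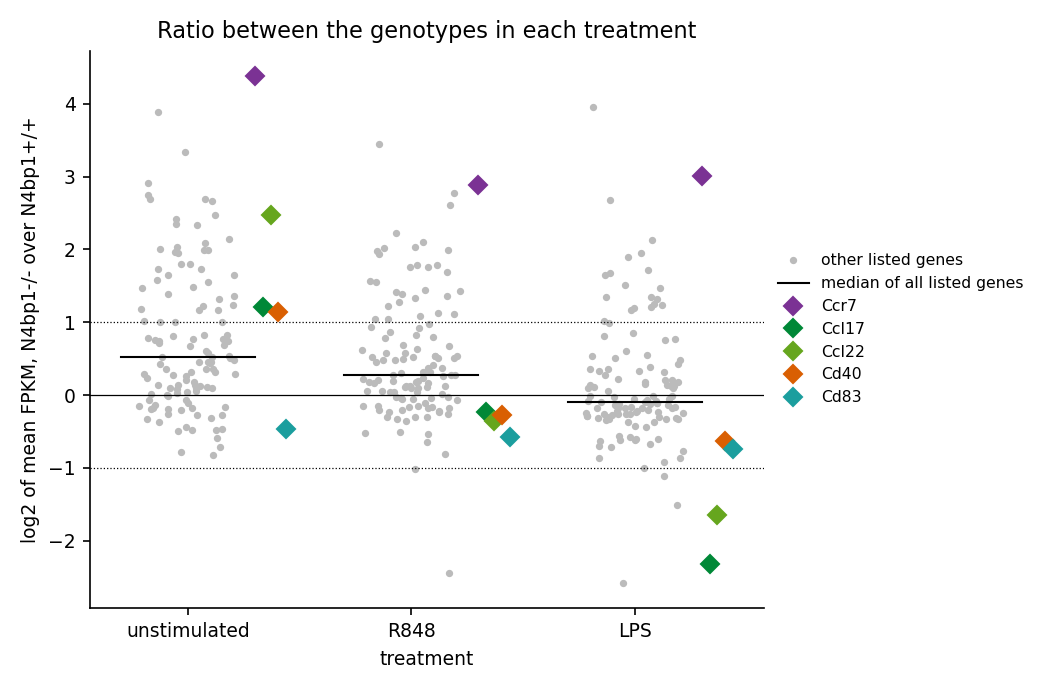
Log2 ratio of mean FPKM between *N4bp1*-/- and *N4bp1*+/+ macrophages (knockout over wild type), by treatment, for the 5 genes (coloured diamonds) and the other listed genes (grey points, spread sideways to separate them). Black bars are the medians of all listed genes (0.53, 0.28 and −0.09) and dotted lines mark 2-fold. *Ccr7* is near the top in each treatment, and *Ccl17* and *Ccl22* pass from above the upper dotted line without stimulus to below the lower one after LPS.

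The genotype ratio after R848 was set against that after LPS, since R848 and LPS act through different TLRs. For *Ccl17* the log2 ratio was 2.09 higher after R848 than after LPS and for *Ccl22* 1.30 higher, ranks 3 and 11 of 124 from the highest. With a pseudocount of 1 FPKM the first of these is 1.00, just under 2-fold, and relative to the median of all listed genes the second is 0.92. For *Cd40* the difference was 0.36, for *Cd83* 0.17 and for *Ccr7* −0.12, and the median of all listed genes was 0.27. The last 3 differences are small beside a scaling choice: relative to the median of all listed genes that of *Cd40* is −0.01 and that of *Cd83* −0.20. With a pseudocount of 0.1 FPKM that of *Ccr7* is 0.05. None of these differences was tested, since single libraries would be needed.

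Both stimuli went with higher levels of these genes in both genotypes on the scale of the deposited FPKM, and the comparisons with R848 and LPS share the unstimulated group. Relative to the median of all listed genes, which itself differs from unstimulated cells by 8.94-fold (R848) and 13.2-fold (LPS) in the wild type, the ratios of *Ccr7* fall below 1 in every comparison, and so does that of *Ccl17* after LPS in *N4bp1*-/- cells. On that scale 41 genes were at least 2-fold higher and 35 lower after R848, and 48 and 44 after LPS, in *N4bp1*+/+ cells. All listed genes were chosen by the authors as NF-κB-dependent, so a higher level after a stimulus is no property of these genes alone. In *N4bp1*+/+ cells all 5 were at least 2-fold higher after R848, against 99.2% of the list, and after LPS, against 91.1%. In *N4bp1*-/- cells 5 were so after R848, against 95.9%, and 4 after LPS, against 86.2%. The exception was *Ccr7*, at 1.84-fold. With a pseudocount of 1 FPKM *Ccr7* was under 2-fold in *N4bp1*+/+ cells after R848 (log2 ratio 0.39) and LPS (0.22). In *N4bp1*-/- cells *Ccr7* (0.93) and *Ccl17* (0.93) were then under 2-fold after R848, and so was *Ccl17* (0.30) after LPS. Of all 124 listed genes 103 and 100 were then at least 2-fold higher after R848 and LPS in *N4bp1*+/+ cells, and 100 and 99 in *N4bp1*-/- cells.

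The size of these ratios differed by gene and genotype. *Cd40* had the largest of the 5, 213-fold after R848 and 334-fold after LPS in *N4bp1*+/+ cells, and 79.8-fold and 97.6-fold in *N4bp1*-/- cells. *Ccl22* was 63.1-fold and 256-fold higher in *N4bp1*+/+ cells but 8.94-fold and 14.8-fold higher in *N4bp1*-/- cells, which start from the higher unstimulated level. For *Ccl17* the ratios were 20.8 and 31.2 in *N4bp1*+/+ cells and 7.60 and 2.69 in *N4bp1*-/- cells. *Cd83* varied least between the genotypes, with 14.1-fold and 14.9-fold in *N4bp1*+/+ cells against 13.0-fold and 12.3-fold in *N4bp1*-/- cells. *Ccr7* was 8.11-fold and 4.76-fold higher in *N4bp1*+/+ cells and 2.87-fold and 1.84-fold higher in *N4bp1*-/- cells. The wild-type ratios of *Ccr7* and *Ccl17* rest on unstimulated means of 0.0452 and 0.0682 FPKM. On the scale of the deposited FPKM every ratio of the 5 genes was smaller in the knockout. This was common in the list: 80 of 123 genes had a smaller ratio in the knockout after R848, and 100 of 123 after LPS. For *Cd83* the order turned under both rescalings to listed genes. Relative to their median its log2 ratios were 0.66 in *N4bp1*+/+ and 0.84 in *N4bp1*-/- cells after R848, and 0.17 and 0.46 after LPS. For *Ccr7* it turned with a pseudocount of 1 FPKM (0.39 and 0.93 after R848, 0.22 and 0.49 after LPS).

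**Figure D3:**
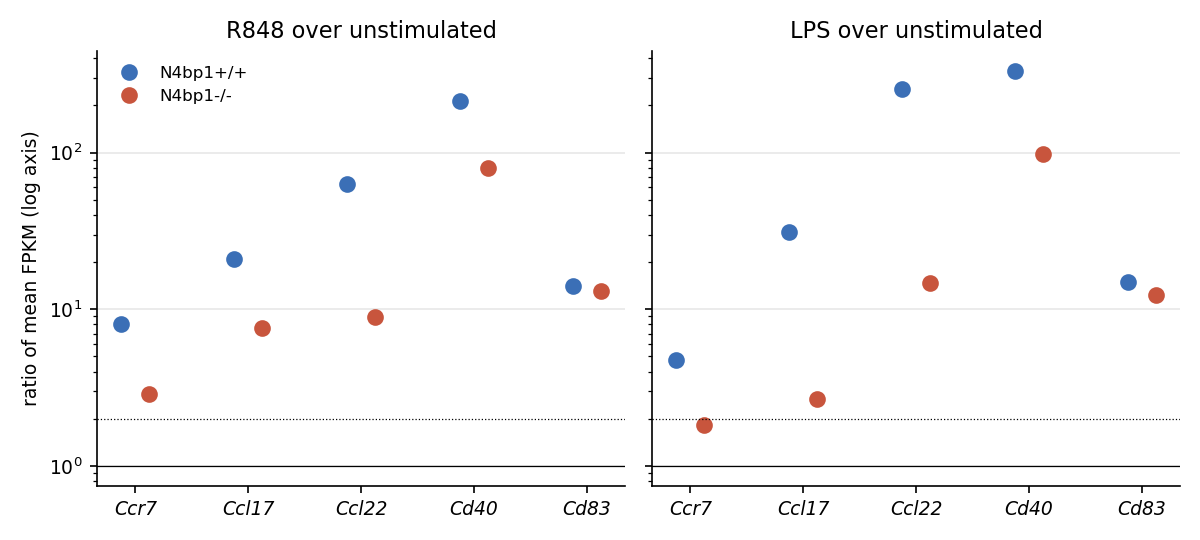
Ratio of mean FPKM after R848 (left) or LPS (right) to that without stimulus, on a log axis, for each of the 5 genes in *N4bp1*+/+ (blue) and *N4bp1*-/- (red) macrophages. The solid line is a ratio of 1 and the dotted line 2-fold. The blue point is above the red one for each of the 5 genes, as it would be for 80 of 123 listed genes after R848 and 100 of 123 after LPS, with the widest gap for *Ccl22* after LPS (256 against 14.8) and the narrowest for *Cd83*. This order turns for *Cd83* relative to the median of all listed genes and for *Ccr7* with a pseudocount of 1 FPKM.

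LPS and R848 differed most for *Ccl22* in wild-type cells and for *Ccl17* in knockout cells. In *N4bp1*+/+ cells *Ccl22* was 4.05-fold higher after LPS than after R848, the 1 gene of the 5 at least 2-fold higher, against 25.8% of the list, while 0 were at least 2-fold lower, against 8.06%. The ratio of *Ccl22* in *N4bp1*-/- cells was 1.65, and 0 of the 5 were at least 2-fold higher there, against 16.9%. *Ccl17* was 1.5-fold higher after LPS than after R848 in *N4bp1*+/+ cells and 2.83-fold lower in *N4bp1*-/- cells, where 9.68% of the list was at least 2-fold lower. *Cd83* differed little, with ratios of 1.06 and 0.941, and *Ccr7* was lower after LPS than after R848 in both genotypes, at ratios of 0.587 and 0.639.

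Ratios of 2 genes within 1 group do not change with the scaling between groups. *Ccl22* exceeded *Ccl17* in every group, by 2.67-fold without stimulus, 8.08-fold after R848 and 21.8-fold after LPS in *N4bp1*+/+ cells. The same ratio was 6.35, 7.47 and 34.9 in *N4bp1*-/- cells. The expression of *Cd83* was 21.2 times that of *Cd40* in unstimulated *N4bp1*+/+ cells and 6.98 times in unstimulated *N4bp1*-/- cells. After LPS *Cd40* was the higher of the pair, with *Cd83* at 0.946 and 0.877 of its level. *Cd40* exceeded *Ccr7* by 2397-fold in *N4bp1*+/+ and 192-fold in *N4bp1*-/- cells after LPS, and by 896-fold and 100.1-fold after R848. In *N4bp1*+/+ cells these ratios rest on low *Ccr7* means, 0.215 FPKM after LPS and 0.366 FPKM after R848.

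In order of level, *Cd83* was the highest of the 5 in unstimulated cells and after R848 in both genotypes, and *Cd40* was the highest after LPS in both. *Ccr7* was the lowest in each wild-type group, and *Ccl17* was the lowest in each knockout group. Together the 5 genes made up 1.49% of the summed FPKM of the 124 genes in unstimulated *N4bp1*+/+ cells and 1.06% in unstimulated *N4bp1*-/- cells. The shares were 3.14% and 2.00% after R848 and 2.58% and 1.91% after LPS. *Cd83* and *Cd40* account for nearly all of these sums. Whether neighbours in these orders differ beyond the spread between mice cannot be given.

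The wider CC chemokine family was higher in unstimulated knockout cells for 4 of its 7 members with values, and its median ratio was lowest after LPS. Of 10 genes looked for, 7 have values. Without stimulus 4 of the 7 were at least 2-fold higher in *N4bp1*-/- cells, *Ccl22*, *Ccl17*, the monocyte attractant *Ccl2* (log2 ratio 1.80) and the T cell attractant *Ccl5* (1.23), where 35% of the list was so. Relative to the median of all listed genes 2 of the 7 were, *Ccl22* and *Ccl2*. After R848, 0 of the 7 passed 2-fold in either direction, and the largest ratio was that of *Ccl4* (0.92). After LPS all 7 were below the wild type, where 72 of the 124 genes were so, but 5 of 7 were so relative to the 42 genes of highest mean FPKM. *Ccl17* and *Ccl22* were the 2 past 2-fold. The median log2 ratio of the 7 was 1.21, 0.19 and −0.56 in the 3 treatments, against 0.53, 0.28 and −0.09 for the whole list. These medians include *Ccl17* and *Ccl22*, and the unstimulated one is the ratio of *Ccl17* itself. Without stimulus *Ccl3* (−0.28), *Ccl4* (−0.31) and *Ccl9* (−0.0019) were below the wild type.

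Among 15 surface and secreted molecules of antigen presentation and co-stimulation, 7 have values, *Cd40* and *Cd83* included. *Cd80*, a ligand of CD28, had log2 ratios of 0.29 in unstimulated cells, 0.52 after R848 and −0.29 after LPS. *Cd274*, which encodes the inhibitory ligand PD-L1, had ratios of 0.11, −0.16 and −0.31. At least 2-fold higher were *Cd40* and the adhesion gene *Vcam1* (2.15) without stimulus, where 35% of all listed genes were so. After R848 it was *Tnfsf15* (1.79), a ligand of the TNF superfamily, against 25%. After LPS 0 of the 7 passed 2-fold, against 16.1% of all listed genes higher and 4.84% lower. Below the wild type were 6 of the 7, where 72 of the 124 genes were so, or 5 under either scaling to listed genes.

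Of 17 genes of CD40 and TRAF signaling, 11 have values. *Cd40* itself, without stimulus, was the 1 at least 2-fold higher in any treatment, and 0 were at least 2-fold lower. Of all listed genes 35%, 25% and 16.1% were at least 2-fold higher in the 3 treatments, and 0%, 1.61% and 4.84% lower. The adapter *Traf1* had log2 ratios of 0.81, 0.48 and 0.48 in the 3 treatments. *Nfkb2*, which encodes the precursor of the p52 subunit used downstream of CD40, had ratios of 0.53, −0.03 and −0.27. The median of the 11 was 0.26 without stimulus, 0.13 after R848 and −0.10 after LPS, and relative to the median of all listed genes it was −0.27, −0.15 and −0.0032.

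**Figure D4:**
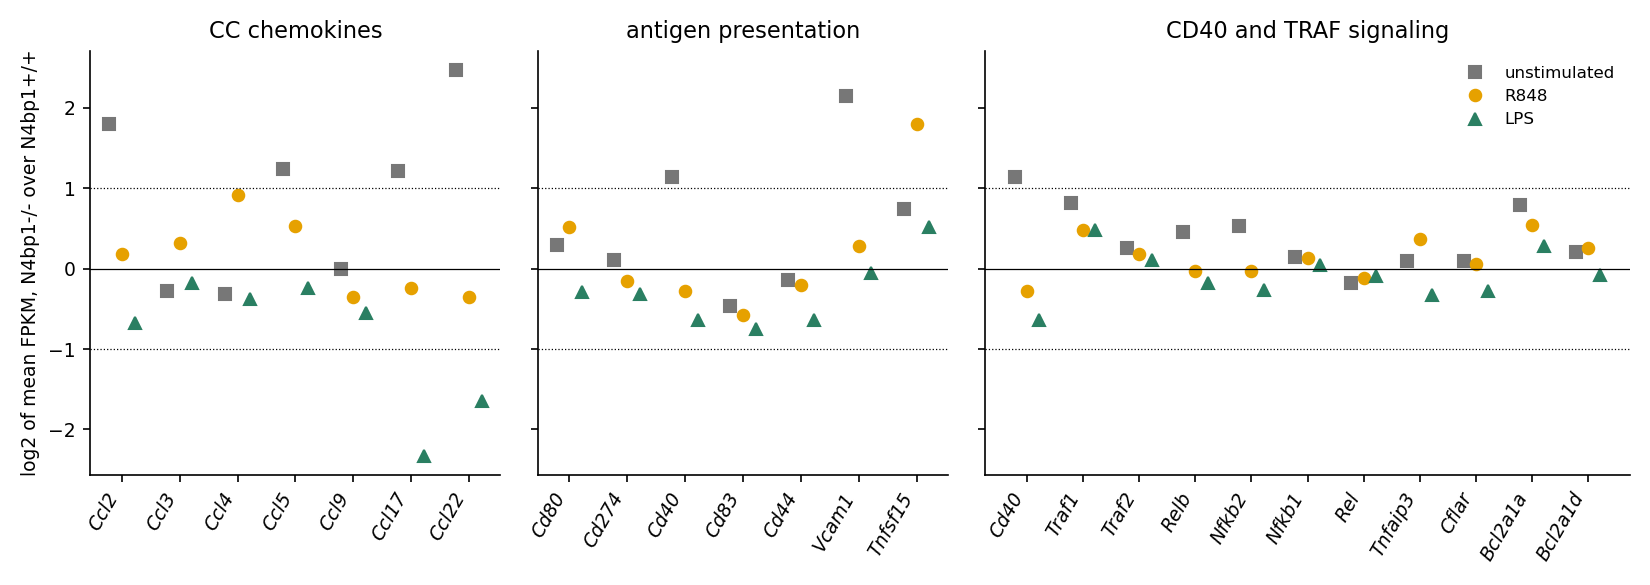
Log2 ratio of mean FPKM, knockout over wild type, for the CC chemokines, antigen presentation molecules and CD40 and TRAF signaling genes that have values, without stimulus (grey squares), after R848 (orange circles) and after LPS (green triangles). Dotted lines mark 2-fold. All 7 chemokines have their LPS value below 0 (5 of 7 relative to the 42 genes of highest mean FPKM), and *Ccl17* and *Ccl22* are the genes below the lower dotted line.

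All 11 cytokines by which dendritic cells instruct T cells have values. Without stimulus 1 of the 10 with a ratio was at least 2-fold higher, against 35% of all listed genes, and 0 were at least 2-fold lower, against 0%. The median log2 ratio of the 10 was −0.12. After R848, 4 of the 11 were at least 2-fold higher in *N4bp1*-/- cells, against 25% of all listed genes. They were *Il10* (log2 ratio 1.94), *Tnfsf15* (1.79), *Il6* (1.38) and *Il12p40* (1.11). *Il15* was at least 2-fold lower (−1.01), against 1.61%. After LPS *Il10* was at least 2-fold higher (1.21), against 16.1%, and *Il23a* at least 2-fold lower (−2.58), against 4.84%. The medians were 0.51 after R848 and −0.61 after LPS, against 0.28 and −0.09 for the whole list.

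The listed genes whose pattern over the 6 group means was most like each gene were found by the root mean square difference of centred log2 FPKM, where 0 would be the same pattern. For *Ccr7* these were *Sox9* (0.48), *Chil1* (0.83) and *Serpina3n* (0.87), all low genes with the knockout above the wild type in each treatment. For *Ccl22* they were *Ccl2* (0.39), *Vcam1* (0.62) and the cyclin gene *Ccnd2* (0.64). *Cd83* was nearest to *Stat5a* (0.23), *Ccl9* (0.28) and *Tnfaip2* (0.36), and *Cd40* to *Tnf* (0.53), *Nfkbiz* (0.55) and *Il1a* (0.56). A near pattern can have another order of genotypes. After R848 *Tnf* (log2 ratio 0.41), *Nfkbiz* (0.62) and *Il1a* (0.22) were higher in the knockout, where *Cd40* was lower (−0.28). So were *Ccl2* (0.19), *Vcam1* (0.28) and *Ccnd2* (0.31), where *Ccl22* was lower (−0.35). For *Ccl17* the closest were *Stat5a* (0.69), *Bcl3* (0.70) and *Ccl9* (0.70), each farther than the nearest gene of any other of the 5. With a pseudocount of 0.1 FPKM the closest to *Ccl17* was *Tfec* (0.53). *Ccl22* is not among the 3 nearest genes of *Ccl17* under either setting, although the order of the genotypes was the same in each treatment.

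Fewer cells of a type and less RNA per cell cannot be told apart in these bulk samples. Of 13 dendritic cell markers looked for, the 4 with values are *Ccr7*, *Cd83*, *Ccl17* and *Ccl22* themselves, and the other 9, *Flt3* and *Zbtb46* among them, have none. Markers of other cells had higher summed levels in the knockout together with *Ccr7*, except the stromal sum after LPS, most of which is *Vcam1* (86.9 and 83.9 FPKM). The other 2 stromal markers were higher in the knockout there too, *Sox9* with a log2 ratio of 2.67 and *Cyp7b1* with 1.16. The summed FPKM of 3 of 7 neutrophil markers (*Lcn2*, *Mmp9* and *Trem1*) was 3.58, 36.6 and 14.7 in *N4bp1*+/+ cells and 6.11, 75.5 and 35.9 in *N4bp1*-/- cells, in the order unstimulated, R848, LPS. That of 3 of 6 stromal markers (*Sox9*, *Cyp7b1* and *Vcam1*) was 0.974, 42 and 88.4 in *N4bp1*+/+ cells and 4.87, 54.2 and 88.2 in *N4bp1*-/- cells. These markers are themselves among the genes chosen by the authors as NF-κB-dependent. Both sums were higher after either stimulus than without it in both genotypes, so they cannot be read as numbers of cells. The markers without values include *Ly6g* and *Col1a1*. Among the neutrophil markers *Lcn2* was lower in unstimulated *N4bp1*-/- cells (log2 ratio −0.49), and *Mmp9* was nearly equal between the genotypes after R848 (0.092). Of all listed genes, 94 of 123 were higher in the knockout without stimulus, 87 of 124 after R848 and 52 of 124 after LPS. The B cell marker *Fcer2a*, 1 of 7, was at or under 0.303 FPKM in each group, and 0 of 5 T cell markers have values. The part of such cells in the values of *Ccr7* or the other genes was not tested.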

How the data were processed

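mRNA was sequenced as stranded paired-end libraries. Tools named in the submitters' processing notes are TopHat2 2.0.10, Cufflinks 2.1.1 and CASAVA 1.8.2, with build mm10, and the study's methods name cuffdiff. Sources used here give neither the annotation nor the read filters. For each of 124 genes the authors deposited FPKM values, 1 mean for the 2 mice of each group. The tables also hold the authors' own fold changes, test statistics, p-values and q-values, which were not used. A further deposited table repeats the FPKM values and was not used.

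Group means were compared as log2 ratios with no pseudocount and no filter, in 9 comparisons. With 1 value a group there is no test, and a ratio of 2-fold or more in either direction was counted. *Il23a*, listed at 0 in unstimulated *N4bp1*-/- cells, has no ratio to that group, which leaves 123 genes there. The 5 genes, the lists and the named patterns were chosen with earlier results of these data known. Named were the 5 genes, the 3 nearest patterns of each, and from each list up to 4 genes per treatment past 2-fold at 1 FPKM or more and up to 2 others. *Fn1*, *Thbs1*, *Cx3cl1* and the marker genes were named outside this rule, after their values or positions were seen. Alternatives were pseudocounts of 0.1 and 1 FPKM, a minimum of 1 FPKM, folds of 1.5 and 3, and ratios relative to the median of all listed genes or of the 42 with the highest mean FPKM. The code that counts ratios past 2-fold and ranks patterns was tested on simulated group means with known ratios, and it returned these. Gene positions came from the tables and GENCODE M21, promoters from RefSeq. Computations used Python 3.11.15, numpy 2.4.6, pandas 2.3.3 and matplotlib 3.10.9.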

Additional observations from a re-analysis of the deposited data

How the results depend on the processing

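The tables hold 1 mean per group, so neither counting error nor the spread between mice is known, and low means such as those of *Ccr7* and *Ccl17* carry an unknown error. No paired analysis was possible because each group has 1 value in the files and the labels give no replicate numbers. Leaving out each replicate was not run for the same reason.

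Of 103 genotype ratios of the 5 genes under other settings, 92 kept their side of 2-fold, 9 fell under the fold used and 2 passed it. The number of genes past the fold between the genotypes changed by over 1.5 times as follows. Without stimulus, 43 higher became 16 with a pseudocount of 1 FPKM, 27 with a minimum of 1 FPKM and 27 at 3-fold, while 0 lower became 4 at 1.5-fold and 7 relative to the median of all listed genes. After R848, 31 higher became 16 at 3-fold, and 2 lower became 0 with a pseudocount of 1 FPKM, 1 with a minimum of 1 FPKM, 4 at 1.5-fold and 1 at 3-fold. After LPS, 20 higher became 9 at 3-fold, and 6 lower became 20 at 1.5-fold and 3 at 3-fold.

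Ratios to the unstimulated group depend on the scaling by construction, since the list is made of induced genes. Relative to the median of all listed genes, 41 were higher and 35 lower after R848 and 48 and 44 after LPS in *N4bp1*+/+ cells, and 36 and 33 after R848 and 41 and 38 after LPS in *N4bp1*-/- cells. Relative to the 42 genes of highest mean FPKM these were, in the same order, 27 and 53, 37 and 57, 30 and 43, and 34 and 48. Under the first of these scalings the log2 ratio turned below 0 for *Ccr7* after R848 (−0.14 in *N4bp1*+/+ and −1.34 in *N4bp1*-/- cells) and after LPS (−1.48 and −2.28), and for *Ccl17* after LPS in *N4bp1*-/- cells (−1.73). Under the second it did so for *Ccr7* (−0.82, −1.72, −2.13 and −2.77), for *Cd83* in *N4bp1*+/+ cells after R848 and LPS (−0.019 and −0.48) and in *N4bp1*-/- cells after LPS (−0.026), for *Ccl17* in *N4bp1*-/- cells after R848 and LPS (−0.32 and −2.22) and for *Ccl22* in *N4bp1*-/- cells after R848 (−0.087). Between LPS and R848 in *N4bp1*+/+ cells, 10 lower became 5 with a pseudocount of 1 FPKM, 6 with a minimum of 1 FPKM and 6 at 3-fold. In *N4bp1*-/- cells 21 higher became 32 and 12 lower became 24 at 1.5-fold, and 12 lower became 2 at 3-fold. Of the 3 nearest patterns, a pseudocount of 0.1 FPKM kept 3 for *Cd83* and for *Cd40*, 2 for *Ccl22*, 1 for *Ccr7* and 0 for *Ccl17*.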
